A study of Mus musculus with 24 samples.

Results

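A set of 10 genes that mark cytotoxic lymphocytes was followed across 24 adipose tissue libraries: the granule proteases Gzma, Gzmb and Gzmk, the pore-forming protein Prf1, the granule membrane protein Nkg7, the receptors Klrd1, Klrk1 and Ncr1, and the transcription factors Eomes and Tbx21. They were taken by symbol, and all 10 were found among the 24421 gene symbols of the count files. The highest group mean of each of the 10 genes was in males with the STAT5B change Y665F, and the lowest in females with the change Y665H. Gzmk was barely detected, with 24 and 3 counts in total in these groups, so its order carries little weight. Between the mutant genotypes in females, 9 of the 9 genes that could be tested were lower in Y665H than in Y665F, by log2 fold changes from -1.38 to -3.40, beside 8.59% of all tested genes that were called lower.

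The study sequenced total RNA of adipose tissue from C57BL/6 mice at 2 months of age. Y665F and Y665H replace the same tyrosine of STAT5B, a transcription factor downstream of cytokine and growth hormone receptors, with phenylalanine or histidine. The 6 groups were wild-type (WT) males, WT females, Y665F males, Y665F females, Y665H males and Y665H females, with 4 libraries each and with strain, age and tissue label in common. The labels describe the mutants as mice with a point mutation at this residue, name no fat depot and do not say whether 1 or both alleles were changed. Replicates carry numbers, but nothing states that each was a separate animal, so p-values measure the spread between these libraries. In bulk tissue, fewer cytotoxic cells and less of a transcript per cell cannot be told apart.

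Natural killer (NK) cells and cytotoxic CD8 T cells kill by releasing granules in which perforin opens the target membrane and granzymes cleave proteins inside the target. NK cells read their targets through receptors such as NKG2D (Klrk1), NKp46 (Ncr1) and the CD94 chain (Klrd1), and both cell types are programmed by the T-box factors T-bet (Tbx21) and Eomes. Interleukin 15 and interleukin 2 keep these cells alive through the shared receptor chain Il2rb and signal through STAT5, and adipose tissue contains resident NK cells, other innate lymphocytes and T cells.

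The stretches just upstream of 4 of these genes are shown because these genes code for the granule machinery and are the 4 that fell together in Y665H females. Each is 250 bases ending at the base before the start site, 5′ to 3′ on the strand of the gene, from RefSeq on GRCm38.p6. For Nkg7 and Prf1 the RefSeq start site lies inside the GENCODE gene span given below. The last bases of these windows therefore overlap that span, and the T-box match of Nkg7 lies in the overlap. Capitals mark matches to the STAT5 motif TTCNNNGAA, the T-box motif AGGTGTGA and the RUNX motif TGTGGT, which were searched on both strands, and no marked matches overlap.
Gzma, chr13:113100982-113101231, minus strand: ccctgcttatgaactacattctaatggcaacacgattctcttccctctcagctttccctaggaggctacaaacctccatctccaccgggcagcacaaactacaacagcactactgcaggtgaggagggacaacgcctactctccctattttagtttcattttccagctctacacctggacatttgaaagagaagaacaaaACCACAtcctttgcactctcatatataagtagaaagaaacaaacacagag
Gzmb, chr14:56262335-56262584, minus strand: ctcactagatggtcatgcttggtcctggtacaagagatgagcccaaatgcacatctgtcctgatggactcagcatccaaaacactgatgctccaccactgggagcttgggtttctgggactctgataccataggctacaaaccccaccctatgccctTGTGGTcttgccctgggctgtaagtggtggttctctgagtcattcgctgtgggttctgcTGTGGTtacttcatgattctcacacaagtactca
Prf1, chr10:61297586-61297835, plus strand: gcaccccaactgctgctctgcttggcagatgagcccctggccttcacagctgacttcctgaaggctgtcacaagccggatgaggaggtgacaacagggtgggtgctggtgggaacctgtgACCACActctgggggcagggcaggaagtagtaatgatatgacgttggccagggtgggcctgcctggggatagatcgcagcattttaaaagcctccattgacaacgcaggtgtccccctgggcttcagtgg
Nkg7, chr7:43436888-43437137, plus strand: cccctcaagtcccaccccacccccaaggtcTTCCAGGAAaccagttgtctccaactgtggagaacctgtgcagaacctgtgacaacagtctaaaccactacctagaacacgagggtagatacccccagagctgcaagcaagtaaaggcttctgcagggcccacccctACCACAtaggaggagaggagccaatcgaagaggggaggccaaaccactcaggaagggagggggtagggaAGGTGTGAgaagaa
RefSeq entries were matched for 9 of the 10 genes, all except Klrd1. The RUNX letters stood in the window of 6 of these 9 genes (Gzma, Gzmb, Prf1, Nkg7, Klrk1 and Ncr1), against 14.0% of all 32851 promoters of the same length. The STAT5 and T-box letters were found only in the window of Nkg7, against 7.02% and 1.12% of all promoters. A match is a run of letters and not a measured binding site.

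On GRCm38, the build of the count files, Gzma and Gzmk are neighbours on chromosome 13 (chr13:113093825-113100981 and chr13:113171608-113225908, both on the minus strand), with 70.6 kb between them. Klrd1 (chr6:129591782-129598775, plus strand) and Klrk1 (chr6:129610323-129623864, minus strand) lie in the NK receptor cluster of chromosome 6, separated by 11.5 kb. Nkg7 and Ncr1 share chromosome 7 at a distance of 39092 kb (chr7:43437073-43438249 and chr7:4337724-4345164, both plus strand). The remaining 4 genes each lie on a chromosome with no other gene of the set: Gzmb at chr14:56258838-56262260 (minus strand), Prf1 at chr10:61297833-61304680 (plus strand), Eomes at chr9:118478212-118486132 (plus strand) and Tbx21 at chr11:97098071-97115331 (minus strand). These spans cover exons, introns and UTRs of each gene model in GENCODE M21.

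The libraries held 21.0 to 41.3 M counts on gene symbols, with a median of 34.6 M (M, 1000000), and levels are given per M of these counts (CPM). A total of 3 counts, the limit that a count of 0 allows, correspond to 0.0726 to 0.143 CPM depending on the library, and cover counting error only. The 12 adipocyte markers summed to 6701 to 26878 CPM over the 24 libraries, with the lowest sum in WT male 2. That library also carried the highest sum of 8 epididymis markers, 12947 CPM, against at most 0.584 CPM in any female library, and 12 skeletal muscle markers ranged from 91.3 to 1073 CPM in WT females, from 35.4 to 183 CPM in Y665F females and from 26.6 to 1843 CPM in Y665H females. Of the defining NK cell markers outside the 10 genes, Klra8 had 0 counts in 5 of the 6 groups and 2 counts in Y665F females. Itga2 had a median of 3.27 CPM in WT females and 2.13 CPM in WT males. In Y665F males the median of Itga2 was 3.08 CPM, with 16.2 CPM in the highest library. Klrb1c, the mouse NK1.1 antigen, was at 0.679 ± 0.242 CPM in WT females and 1.02 ± 0.408 CPM in Y665F females (SD, n = 4). In WT males, Klrb1c reached 117.2 CPM in its highest library with a median of 5.17 CPM, so this marker did not follow the other NK genes there.

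All 10 genes were scarce in this tissue. Per kilobase of exon sequence, the scale on which genes can be compared, WT females held 1.35 ± 0.481 CPM per kb of Gzma and 1.09 ± 0.130 of Nkg7 (SD, n = 4), the most abundant of the set. Ncr1 followed at 0.533 ± 0.0907 CPM per kb, and Prf1, Tbx21, Gzmb and Klrd1 lay between 0.276 and 0.362. Klrk1 at 0.149 ± 0.0310, Eomes at 0.11 ± 0.0207 and Gzmk at 0.0289 ± 0.0240 CPM per kb were the lowest. In Y665F males the order began with Nkg7 at 4.17 ± 1.42 and Gzma at 3.44 ± 1.09 CPM per kb, and Gzmb came next at 1.79 ± 0.467, whereas 5 genes lay above it in WT females. In Y665H females Gzmb was next to the bottom of the tested genes, at 0.0806 ± 0.0571 CPM per kb, with Eomes below it at 0.0445 ± 0.0226.

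**Figure D1:**
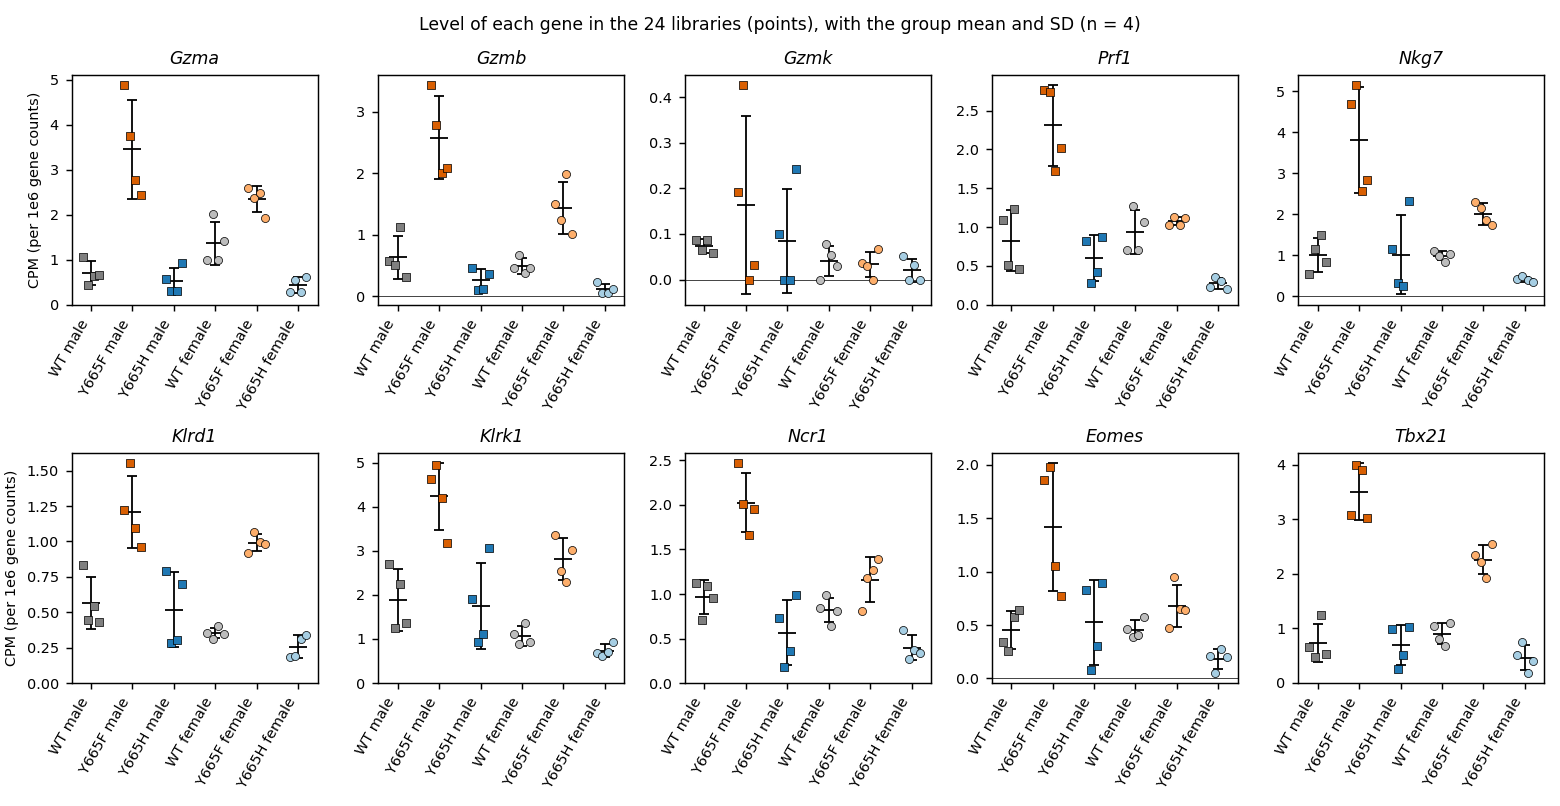
Level of each of the 10 genes in every library, in CPM on a linear axis, by group. Points are libraries, and bars are the group mean with the SD of 4 libraries. Y665F males hold the highest mean in every panel and Y665H females the lowest. For Gzmk these means rest on 24 and 3 counts in total.

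In Y665F females, 5 of the 9 tested genes rose against WT females (Klrd1, Klrk1, Tbx21, Gzmb and Nkg7) and none fell, beside 2.31% of all 15642 tested genes that were called higher. Called means an adjusted p under 0.05 in edgeR's quasi-likelihood test, with Benjamini-Hochberg adjustment over all genes tested. The groups did not overlap for the same 5 genes, beside 19.9% of all tested genes, and the median log2 fold change of the 9 was 0.89 against 0.02 over all genes. Gzmk was below the count filter in every comparison and was not tested. The count of 5 fell to 2 with the replicate block and in the fit over all 24 libraries (1.93% of all genes higher there), and to 0 with the B cell list or the skeletal muscle list as a covariate. It fell to 0 without WT female 1, WT female 4, Y665F female 1 or Y665F female 4, to 1 without WT female 2 or Y665F female 2, and to 2 without WT female 3. Calls over all genes in either direction were 521 as reported. They ran from 67 to 747 without single libraries and from 0 to 2030 under the other settings.

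In Y665F males, all 4 libraries lay above all 4 WT males for each of the 9 genes, beside 5.59% of all 16240 tested genes. The log2 fold changes ran from 1.11 for Ncr1 to 2.34 for Gzma, with a median of 1.70 against -0.04 over all genes. None was called by edgeR, beside 0% of all tested genes, with adjusted p from 0.104 to 0.222 for the 9 genes. All 9 had an unadjusted p under 0.05, as did 2772 of all tested genes, or 17.1%. The DESeq2 Wald test called 8 of the 9 higher, beside 3.83% of all genes under that test, and the edgeR fit over all 24 libraries called all 9 higher, beside 5.45%. Without WT male 1, Gzma and Tbx21 were called, and without WT male 2, the library with the high epididymis sum, the count stayed at 0. Calls over all genes ran from 0 to 570 when single libraries were left out and from 0 to 2261 under the other settings. The share of all genes called without WT male 1 alone is not given here. The biological coefficient of variation was 47.2% here against 26.6% for the same comparison in females.

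In Y665H females, 4 of the 9 genes fell against WT females (Nkg7, Prf1, Gzma and Gzmb) and none rose, beside 1.8% of all 15469 tested genes that were called lower. The 4 genes code for granule proteins, but values of the others came close (-1.28 for Eomes and -1.02 for Ncr1, neither called, against -1.24 for Nkg7), and a difference between granule genes and the rest was not tested. A list of further granule effectors had 0 of 8 genes called by edgeR in this comparison, with 3 higher and 1 lower at an unadjusted p under 0.05 and a median of 0.15. The groups did not overlap for those 4 genes and for Ncr1 and Eomes, 6 of the 9, beside 6.81% of all tested genes. The median log2 fold change of the 9 was -1.24 against -0.00459 over all genes. The count of 4 fell to 2 with DESeq2 (5.89% of all genes lower), to 2 in the fit over all 24 libraries (0.624%) and to 2 with the B cell list as a covariate, and to 0 with the replicate block. It was 0 without WT female 1, WT female 4, Y665H female 1, Y665H female 3 or Y665H female 4, and 2 without WT female 2 or Y665H female 2. Calls over all genes in either direction were 516 as reported. They ran from 20 to 1269 without single libraries and from 32 to 1782 under the other settings.

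In Y665H males, none of the 9 genes was called against WT males, beside 0% of all 16406 tested genes, and the groups overlapped for all 9. The log2 fold changes ran from -1.29 for Gzmb (edgeR adjusted p 0.402, SE 0.59) to 0.18 for Eomes (edgeR adjusted p 0.890, SE 0.66), with a median of -0.15 against -0.05 over all genes. None of the 9 had an unadjusted p under 0.05, and DESeq2 called none. The SE ran from 0.43 to 0.69, against 0.21 to 0.46 in females. For most of the 9 genes, Y665H males 1 and 4 were high and Y665H males 2 and 3 were low.

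Between the mutants, all 9 genes were lower in Y665H than in Y665F females, beside 8.59% of all 15493 tested genes that were called lower. No library of one mutant overlapped the other for any of the 9, beside 21.5% of all tested genes, and the median log2 fold change was -1.81 against -0.03 over all genes. With the replicate block or the muscle covariate 7 of the 9 were called, and with the B cell covariate 0. The B cell fit called 0 of all tested genes, and the shares of all genes under the replicate block and the muscle covariate are not given here. In females, calls over all genes in either direction were 2689 as reported. They ran from 1554 to 2839 without single libraries and from 0 to 3897 under the other settings. In males, 3 genes fell (Gzmb, Gzma and Tbx21), beside 0.901% of all 15986 tested genes, and 8 of the 9 did not overlap (all but Eomes), beside 6.17%. The median in males was -1.98 against -0.02 over all genes. The male count of 3 fell to 0 with the replicate block, with the epididymis list as a covariate, or without Y665F male 1, 2 or 3 or Y665H male 1 or 3. It was 1 with the B cell covariate or without Y665H male 4, 2 with the muscle covariate or without Y665H male 2, 7 with DESeq2 (4.08% of all genes lower) and 8 in the fit over all 24 libraries (1.77%). In males, calls over all genes in either direction were 164 as reported. They ran from 10 to 220 without single libraries and from 0 to 1078 under the other settings. The comparisons between the mutants share their mutant libraries with those against WT.

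**Figure D2:**
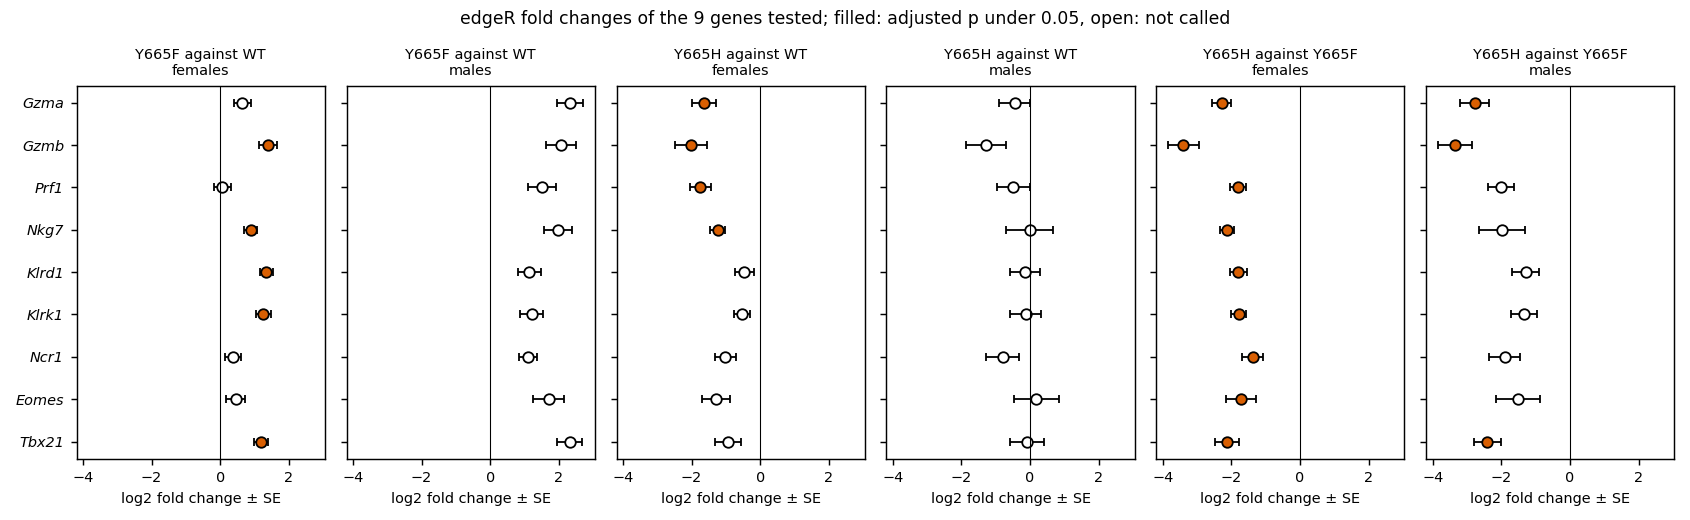
Log2 fold change with its SE (horizontal bars) of the 9 tested genes in 6 comparisons, from edgeR. Filled points have an adjusted p under 0.05. Y665F points lie above 0 in both sexes, with 5 filled in females and none in males, and all 9 points of Y665H against Y665F in females are filled and below 0.

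Gzmb, the granzyme that activates caspases in the target cell, had the widest span of the set as a ratio between group means, though not in CPM. In females it was at 0.461, 0.674, 0.376 and 0.463 CPM in WT, at 1.5, 1.24, 1.99 and 1.02 CPM in Y665F, and at 0.232, 0.0549, 0.0622 and 0.114 CPM in Y665H libraries 1 to 4. In males it was at 0.576, 0.512, 1.12 and 0.318 CPM in WT, at 3.43, 2.79, 2.00 and 2.09 CPM in Y665F, and at 0.461, 0.103, 0.121 and 0.363 CPM in Y665H. The 3 female genotypes formed 3 separate ranges, whereas among males only Y665F stood apart, and Y665H female values of 0.0549 and 0.0622 CPM are under the 3-count limit. Gzmb rose in Y665F females (log2 fold change 1.39, edgeR adjusted p 0.0365, SE 0.27) and fell in Y665H females (-2.01, edgeR adjusted p 0.0486, SE 0.46). It was 3.40 lower on the log2 scale in Y665H than in Y665F females and 3.35 lower in males, the largest difference among the 9 genes in each sex (edgeR adjusted p 0.00260 and 0.0243).

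Gzma, a granzyme with trypsin-like specificity, was at 1.00, 2.02, 0.994 and 1.42 CPM in WT females, at 2.60, 2.37, 2.47 and 1.94 CPM in Y665F females and at 0.284, 0.549, 0.280 and 0.625 CPM in Y665H females. The male values were 1.06, 0.448, 0.633 and 0.665 CPM in WT, 4.88, 3.74, 2.76 and 2.44 CPM in Y665F and 0.560, 0.308, 0.302 and 0.919 CPM in Y665H. WT female 2 reached into the Y665F female range, while every Y665H female was below every WT female. Gzma fell in Y665H females (log2 fold change -1.63, edgeR adjusted p 0.0437, SE 0.35) and was not called in Y665F females (0.65, edgeR adjusted p 0.164, SE 0.26). In Y665F males its log2 fold change was 2.34 (edgeR adjusted p 0.104, SE 0.38). Y665H was lower than Y665F by -2.28 on the log2 scale in females and -2.78 in males (edgeR adjusted p 0.00219 and 0.0258). WT males held less Gzma than WT females on average, a log2 difference of -1.09 (SE 0.37) that was not called (edgeR adjusted p 0.0833).

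Gzmk, a granzyme of effector memory T cells, was barely detected, with at most 0.0778 CPM in WT females, 0.0679 CPM in Y665F females and 0.0516 CPM in Y665H females. Males had at most 0.0864 CPM in WT, 0.427 CPM in Y665F and 0.242 CPM in Y665H, with 0 counts in at least 1 library of 5 of the 6 groups. With the filter removed, its edgeR adjusted p ran from 0.521 to 0.931 over the comparisons. No difference in Gzmk was detectable at this depth.

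Prf1, perforin, was at 0.705, 1.27, 0.699 and 1.07 CPM in WT females, at 1.03, 1.12, 1.03 and 1.12 CPM in Y665F females and at 0.232, 0.357, 0.311 and 0.199 CPM in Y665H females. In males it was at 1.09, 0.512, 1.24 and 0.463 CPM in WT, at 2.76, 2.74, 1.72 and 2.02 CPM in Y665F and at 0.824, 0.283, 0.423 and 0.871 CPM in Y665H. The Y665F females lay inside the WT female range, in contrast to the Y665F males, which were all above WT males. Prf1 fell in Y665H females (log2 fold change -1.75, edgeR adjusted p 0.0263, SE 0.31), whereas in Y665F females the value was 0.06 (edgeR adjusted p 0.883, SE 0.24). The Y665F effect was 1.45 higher in males than in females on the log2 scale (SE 0.49), and this interaction was not called by edgeR (adjusted p 0.149). In Y665H against Y665F males the log2 fold change was -2.01 (edgeR adjusted p 0.0508, SE 0.38).

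Nkg7, a granule membrane protein needed for efficient granule release, was at 1.11, 0.985, 0.833 and 1.04 CPM in WT females, at 2.31, 2.16, 1.85 and 1.73 CPM in Y665F females and at 0.413, 0.494, 0.404 and 0.341 CPM in Y665H females. Male libraries held 0.547, 1.15, 1.5 and 0.839 CPM in WT, 4.69, 5.15, 2.57 and 2.82 CPM in Y665F and 1.15, 0.334, 0.242 and 2.32 CPM in Y665H. The female genotypes did not overlap, with Y665F above WT and Y665H below, and Y665H male 4 came close to the lowest Y665F male. Nkg7 rose in Y665F females (log2 fold change 0.89, edgeR adjusted p 0.0407, SE 0.18) and fell in Y665H females (-1.24, edgeR adjusted p 0.0244, SE 0.21). Its log2 fold change was 1.98 in Y665F males (edgeR adjusted p 0.123, SE 0.40) and -0.01 in Y665H males (edgeR adjusted p 0.996, SE 0.69). Gzmb and Nkg7 were called in opposite directions for Y665F and Y665H in females, and those 2 comparisons share the 4 WT females.

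Klrd1, the CD94 chain that pairs with NKG2 receptors, was at 0.353, 0.311, 0.403 and 0.347 CPM in WT females, at 0.916, 1.06, 0.996 and 0.985 CPM in Y665F females and at 0.181, 0.192, 0.311 and 0.341 CPM in Y665H females. The male values were 0.835, 0.448, 0.547 and 0.434 CPM in WT, 1.22, 1.56, 1.10 and 0.963 CPM in Y665F and 0.791, 0.283, 0.302 and 0.701 CPM in Y665H. Y665F females formed a tight range far above WT females, and Y665H female 4 lay within the WT range, with Y665H female 3 at its lower edge. Klrd1 had the smallest adjusted p of the 9 genes in Y665F females (log2 fold change 1.35, edgeR adjusted p 0.0150, SE 0.19). In Y665H females it was not called (-0.46, edgeR adjusted p 0.351, SE 0.29). It was the 1 gene of the 9 whose WT males all lay above WT females, beside 18.2% of all genes tested between the sexes, but the difference was not called (0.54, edgeR adjusted p 0.255, SE 0.31).

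Klrk1 codes for NKG2D, an activating receptor for stress-induced ligands. It was at 1.11, 0.882, 1.37 and 0.925 CPM in WT females, at 3.37, 2.54, 2.30 and 3.02 CPM in Y665F females and at 0.671, 0.604, 0.715 and 0.937 CPM in Y665H females. In males it was at 2.71, 1.25, 2.24 and 1.36 CPM in WT, at 4.62, 4.95, 4.19 and 3.18 CPM in Y665F and at 1.91, 0.925, 1.12 and 3.07 CPM in Y665H. Y665F lay above WT in both sexes without overlap, and Y665H female 4 reached above 2 WT females. Klrk1 rose in Y665F females (log2 fold change 1.26, edgeR adjusted p 0.0244, SE 0.21), with 1.21 in Y665F males (edgeR adjusted p 0.207, SE 0.34). Its interaction with sex was -0.05 (edgeR adjusted p 0.957, SE 0.41) and that of Klrd1 was -0.21 (edgeR adjusted p 0.767, SE 0.38). In Y665H females Klrk1 was not called (-0.54, edgeR adjusted p 0.192, SE 0.23).

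Ncr1 codes for NKp46, a receptor largely restricted to NK cells and related innate lymphocytes in mice. It was at 0.841, 0.985, 0.645 and 0.809 CPM in WT females, at 0.806, 1.18, 1.27 and 1.39 CPM in Y665F females and at 0.594, 0.274, 0.373 and 0.341 CPM in Y665H females. Male libraries held 1.12, 0.703, 1.09 and 0.955 CPM in WT, 2.47, 2.01, 1.67 and 1.96 CPM in Y665F and 0.725, 0.180, 0.363 and 0.992 CPM in Y665H. Y665F female 1 lay within the WT female range, and all Y665H females lay below it. Ncr1 was not called in Y665F females (log2 fold change 0.37, edgeR adjusted p 0.326, SE 0.23), in Y665F males (1.11, edgeR adjusted p 0.153, SE 0.26) or in Y665H females (-1.02, edgeR adjusted p 0.0925, SE 0.30). Between the mutants in females it was lower in Y665H (-1.38, edgeR adjusted p 0.0187, SE 0.31), the smallest difference of the 9 genes.

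Of the transcription factors, Tbx21 (T-bet) was at 1.03, 0.804, 0.672 and 1.10 CPM in WT females, at 2.34, 2.22, 1.92 and 2.55 CPM in Y665F females and at 0.516, 0.741, 0.187 and 0.398 CPM in Y665H females. The male values of Tbx21 were 0.662, 0.480, 1.24 and 0.521 CPM in WT, 3.08, 3.99, 3.91 and 3.02 CPM in Y665F and 0.989, 0.257, 0.514 and 1.02 CPM in Y665H. Y665F males, Y665F females and the other 4 groups formed separate ranges for Tbx21. Tbx21 rose in Y665F females (log2 fold change 1.19, edgeR adjusted p 0.0259, SE 0.21), and in Y665F males its log2 fold change was 2.31 (edgeR adjusted p 0.104, SE 0.37). It was lower in Y665H than in Y665F by -2.13 in females and -2.41 in males (edgeR adjusted p 0.00649 and 0.0341).

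Eomes, the partner T-box factor that separates conventional NK cells from type 1 innate lymphocytes, was at 0.461, 0.389, 0.403 and 0.578 CPM in WT females, at 0.476, 0.946, 0.652 and 0.645 CPM in Y665F females and at 0.207, 0.0549, 0.280 and 0.199 CPM in Y665H females. In males Eomes was at 0.345, 0.256, 0.575 and 0.637 CPM in WT, at 1.86, 1.98, 1.05 and 0.770 CPM in Y665F and at 0.824, 0.0771, 0.302 and 0.895 CPM in Y665H. Y665F female 1 overlapped WT females, and Y665H males 1 and 4 overlapped the lowest Y665F male. The value of 0.0549 CPM in Y665H female 2 is under the 3-count limit of that library, 0.0823 CPM. That of Y665H male 2 is at its limit of 0.0771 CPM. Eomes was not called in Y665F females (log2 fold change 0.45, edgeR adjusted p 0.319, SE 0.27), Y665F males (1.70, edgeR adjusted p 0.191, SE 0.45) or Y665H females (-1.28, edgeR adjusted p 0.106, SE 0.40). It was lower in Y665H than in Y665F females (-1.73, edgeR adjusted p 0.0274, SE 0.43).

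Whether the sexes differed in these responses was tested directly. No interaction of Y665F with sex was called for any of the 9 genes, beside 0% of all 16732 tested genes, and none of Y665H, beside 0.0119% of all 16827. For Y665F the values were above 0 for 7 of the 9 genes, from 0.67 for Gzmb to 1.69 for Gzma (edgeR adjusted p 0.130, SE 0.47). Prf1, Nkg7, Eomes, Tbx21, Ncr1 and Gzma had an unadjusted p under 0.05 for this interaction, 6 of the 9 beside 21.8% of all tested genes, and DESeq2 called 1 of the 9 higher, beside 3.05%. In WT mice, none of the 9 genes was called between the sexes, beside 13.1% of all 15865 tested genes, although 1 was called lower in males in the fit over all 24 libraries, beside 13.4% of all genes there, and 1 was called without WT male 1. Between the WT sexes, 251 to 5076 of all genes were called when single libraries were left out.

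Markers of other lymphocytes moved in the same libraries. In Y665F females, 12 of 14 T cell genes rose (median log2 fold change 1.85 against 0.02 over all genes), among them Cd4 (1.84, edgeR adjusted p 0.00884, SE 0.18) and Cd8a (2.06, edgeR adjusted p 0.00978, SE 0.23). The 14 genes summed to 45.6 to 74.7 CPM in WT females, 82.5 to 104.3 CPM in Y665F females and 37.1 to 65.3 CPM in Y665H females, and none of them was at 0 in any group. In the 10 B cell genes, 3 rose (median 1.16), with sums of 9.39 to 15.2 CPM in WT, 25.4 to 36.2 CPM in Y665F and 8.77 to 13.7 CPM in Y665H females. Of 12 macrophage genes 0 were called by edgeR in Y665F females (median 0.46, 6 with an unadjusted p under 0.05), and the 4 tested lymph node stroma genes had a median of 0.03. Other tissues differed between the same libraries: 12 skeletal muscle genes had a median of -3.57 (0 called by edgeR, 11 lower at an unadjusted p under 0.05), 8 epithelial genes 2.47 (0 called, 3 higher at an unadjusted p under 0.05) and 12 adipocyte genes -0.38 (1 called lower, 5 lower at an unadjusted p under 0.05). The epithelial sum was 77.0 to 219.8 CPM in WT and 136.3 to 1907 CPM in Y665F females, and the adipocyte sum 17643 to 22568 CPM and 11871 to 19867 CPM. The part of these tissues and cell types in the levels of the 10 genes was not tested beyond the covariate fits given above.

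The rest of the cytotoxic programme in Y665F females is given by 7 further lists. Among NK receptors, 4 of 13 tested genes rose (median 1.04): Cd96 (2.39, edgeR adjusted p 0.00978, SE 0.25), Cd226, Klrg1 and Cd244. Of the adaptors and signalling proteins below such receptors 5 of 11 rose (median 0.78), including the kinase Zap70 (1.64, edgeR adjusted p 0.0356, SE 0.32) and the adaptor Sh2d1b1 (1.36, edgeR adjusted p 0.0379, SE 0.27). Among effector cytokines, chemokines and their receptors 8 of 14 rose (median 1.13), with Cxcr3 at 1.62, Il18r1 at 1.64 and Il18rap at 1.43. Il2rb, the receptor chain for interleukins 2 and 15, was at 4.12 ± 0.864 CPM in WT and 13.4 ± 2.04 CPM in Y665F females (SD, n = 4), and rose by 1.57 on the log2 scale (edgeR adjusted p 0.0113, SE 0.20). Il15 itself was not called (-0.16, edgeR adjusted p 0.506, SE 0.15), and Ifng was below the filter.

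Of the remaining lists in Y665F females, transcription factors of effector lymphocytes rose in 4 of 13 cases (median 0.33): Tcf7, Ikzf3, Runx3 and Stat4. In granule exocytosis 2 of 7 rose (median 0.49), the priming factor Unc13d (1.08, edgeR adjusted p 0.0163, SE 0.16) and Stxbp2 (0.49, edgeR adjusted p 0.0417, SE 0.10). The ligands of NK receptors had 1 of 6 higher, H60b (1.08, edgeR adjusted p 0.0442, SE 0.23). Of 8 tested further granule effectors 0 were called by edgeR (median 0.21, 2 with an unadjusted p under 0.05). In Y665F males no gene of any of these lists was called by edgeR, with medians of 1.84 for T cell genes, 1.05 for NK receptors, 0.92 for cytokines and receptors and 0.25 for granule effectors, against -0.04 over all genes. All 14 T cell genes had an unadjusted p under 0.05 there, and so did 10 of 17 NK receptors.

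In Y665H females few genes of these lists were called. Of 13 tested T cell genes 0 were called by edgeR (median 0.42 against -0.00459 over all genes), with 2 higher and 2 lower at an unadjusted p under 0.05. The 6 tested NK receptors had 0 calls by edgeR (median -0.45, 2 lower at an unadjusted p under 0.05). What fell beside the granule genes was the chemokine Ccl5 (-1.21, edgeR adjusted p 0.0341, SE 0.24), Il2rb (-1.01, edgeR adjusted p 0.0379, SE 0.20), the phospholipase Plcg2 (-0.59, edgeR adjusted p 0.0236, SE 0.10) and the ligand Pvr (-0.44, edgeR adjusted p 0.0389, SE 0.09), while Stxbp2 rose (0.39, edgeR adjusted p 0.0480, SE 0.09). B cell genes had a median of -0.02 and macrophage genes of -0.30. Y665H female 4 stood apart in T cell genes, with 6.47 CPM of Cd8a against 0.413 to 0.576 CPM in the other 3, 1.51 CPM of Cd8b1 against 0.0516 to 0.220 CPM, and 2.27 CPM of Cd3e against 0.622 to 0.878 CPM. In that library Prf1 (0.199 CPM) and Nkg7 (0.341 CPM) were the lowest of the group, whereas Gzma (0.625 CPM) was the highest and Gzmb (0.114 CPM) was within the range of the others. Without that library, 0 of the 9 genes were called in Y665H females.

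Between the mutants in females, many genes of the surrounding lists were also lower in Y665H. The lower calls were 10 of 14 cytokines and receptors, 8 of 12 NK receptors, 8 of 11 adaptors, 6 of 14 T cell genes, 7 of 10 B cell genes and 7 of 12 macrophage genes, with medians of -1.30, -1.43, -1.21, -1.46, -1.18 and -0.60. In the same comparison 7 of 12 skeletal muscle genes (median 4.49) and 3 of 12 adipocyte genes (median 0.53) were called higher, and 8 epithelial genes had a median of -2.23 with 0 called by edgeR and 3 lower at an unadjusted p under 0.05. Il2rb fell by 2.58 on the log2 scale (edgeR adjusted p 0.00105, SE 0.18) and Ccl5 by 2.52 (edgeR adjusted p 0.00148, SE 0.23). Cd8a, in contrast, was not called (-0.32, edgeR adjusted p 0.819, SE 0.86), with single Y665H females between 0.413 and 6.47 CPM. In males the lower calls were 4 of 16 NK receptors (Klrg1, Klrb1c, Cd244 and Cd226), 3 of 11 adaptors (Plcg2, Zap70 and Syk), 3 of 14 T cell genes (Lat and Cd2 among them), the granule protease Ctsw (-1.44, edgeR adjusted p 0.0144, SE 0.17) and Unc13d (-1.22, edgeR adjusted p 0.0181, SE 0.16).

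**Figure D3:**
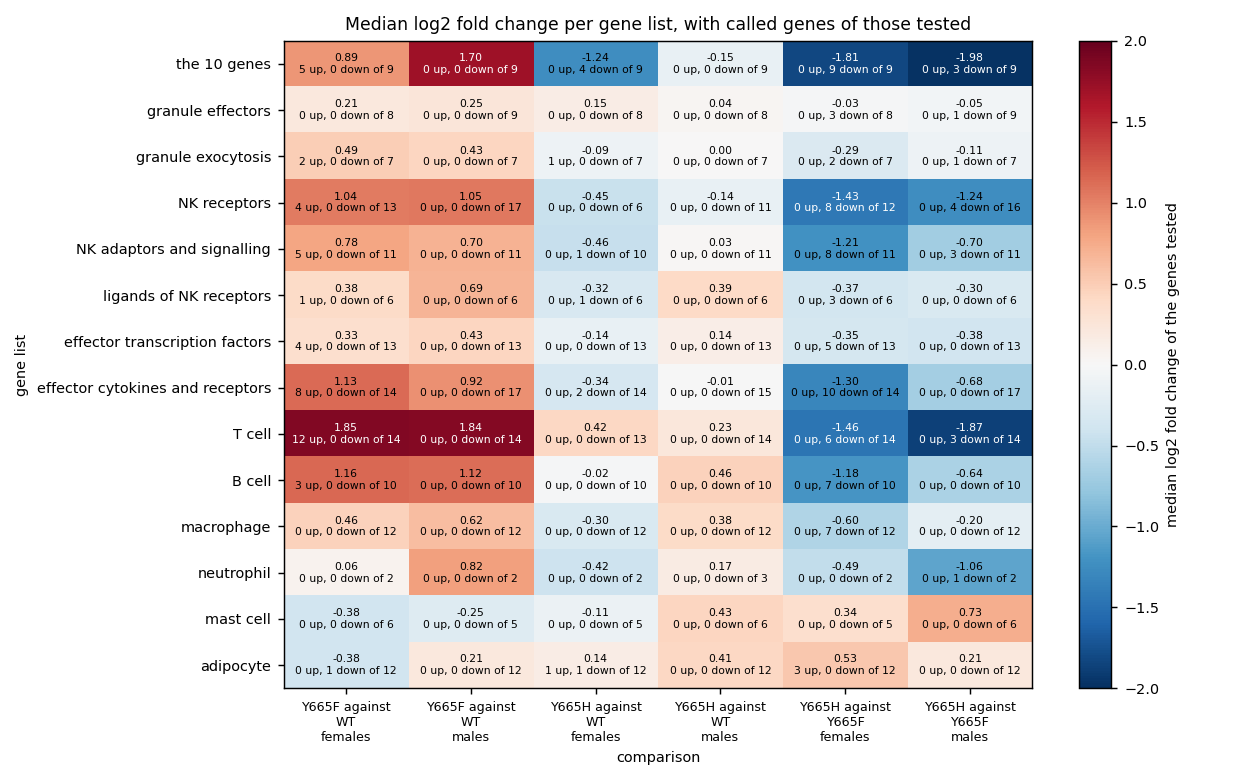
Median log2 fold change of the tested genes of 14 lists (rows) in 6 comparisons (columns), with the number called higher and lower by edgeR. The row of the 10 genes and the T cell row both have positive medians in Y665F against WT, whereas in Y665H against WT in females the 10 genes have -1.24 and the T cell genes 0.42. The T cell genes without Thy1 summed to 39.6 CPM in Y665H female 4. The other Y665H females were at 9.68 to 14.4 CPM and WT females at 10.5 to 15.4 CPM.

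To set the level of the 10 genes against that of T cells, each was divided by the summed CPM of the T cell list in the same library, with Cd3e alone and with the list without Thy1 as other denominators. Thy1, which stromal cells express as well, made up 29.2 to 82.5% of the sum, and the denominator without it was chosen after these shares were seen. Against the list without Thy1, the female ratio of Prf1 was 7.40 ± 3.24% in WT, 2.08 ± 0.337% in Y665F and 2.12 ± 1.13% in Y665H (SD, n = 4). Ncr1 was at 6.41 ± 1.97%, 2.29 ± 0.745% and 3.16 ± 2.31% in the same order, and Gzmb at 3.91 ± 1.66%, 2.84 ± 1.24% and 0.923 ± 0.995%. With this denominator, all 9 genes had a lower mean log2 ratio in Y665F than in WT females. The median difference was -0.98, with no overlap for 7 of them. With Cd3e all 9 were lower as well (-1.08, no overlap for 6). The denominators themselves rose: the sum without Thy1 was 10.5 to 15.4 CPM in WT and 42.6 to 63.7 CPM in Y665F females, and Cd3e was also higher. A gene that rose less than its denominator, or stayed level, must then have a lower ratio. These lower ratios therefore do not show that the genes fell. With Thy1 in the sum the median was 0.37, with 6 genes higher and 3 lower, so the direction for Y665F females turns on Thy1.

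For Y665H females the ratio was lower than in WT for 9 of 9 genes under all 3 denominators, with medians of -0.97 with the whole list, -1.45 with Cd3e and -1.5 without Thy1. Gzmb had the largest of these differences, -2.01, -2.49 and -2.54 on the log2 scale, and its 4 Y665H females lay below all WT females each time. In the same order, 4, 4 and 6 of the 9 genes did not overlap WT females, beside a share of all genes that was not computed. Klrd1, Klrk1 and Ncr1 overlapped WT females with every denominator. With the whole list, Klrd1 differed by -0.22 and Klrk1 by -0.25, each with a pooled SD of 0.46 between libraries. Y665H female 4 had the highest T cell sum without Thy1 of its group, 39.6 CPM, and the lowest ratios except for Eomes. Without Thy1, Prf1 was at 2.40, 2.47, 3.13 and 0.502% in Y665H females 1 to 4, against 4.77 to 12.1% in WT females. Nkg7 was at 4.27, 3.42, 4.06 and 0.861%, against 6.78 to 9.36%. In Y665H males the 9 ratios were also lower, with medians of -0.74, -0.38 and -0.50, but only Gzmb and Ncr1 lay apart from WT males without Thy1. In Y665F males the medians were 0.40, -0.18 and -0.15. Between the mutants in females the medians were -1.11, -0.14 and -0.29. No test was made on these ratios.

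**Figure D4:**
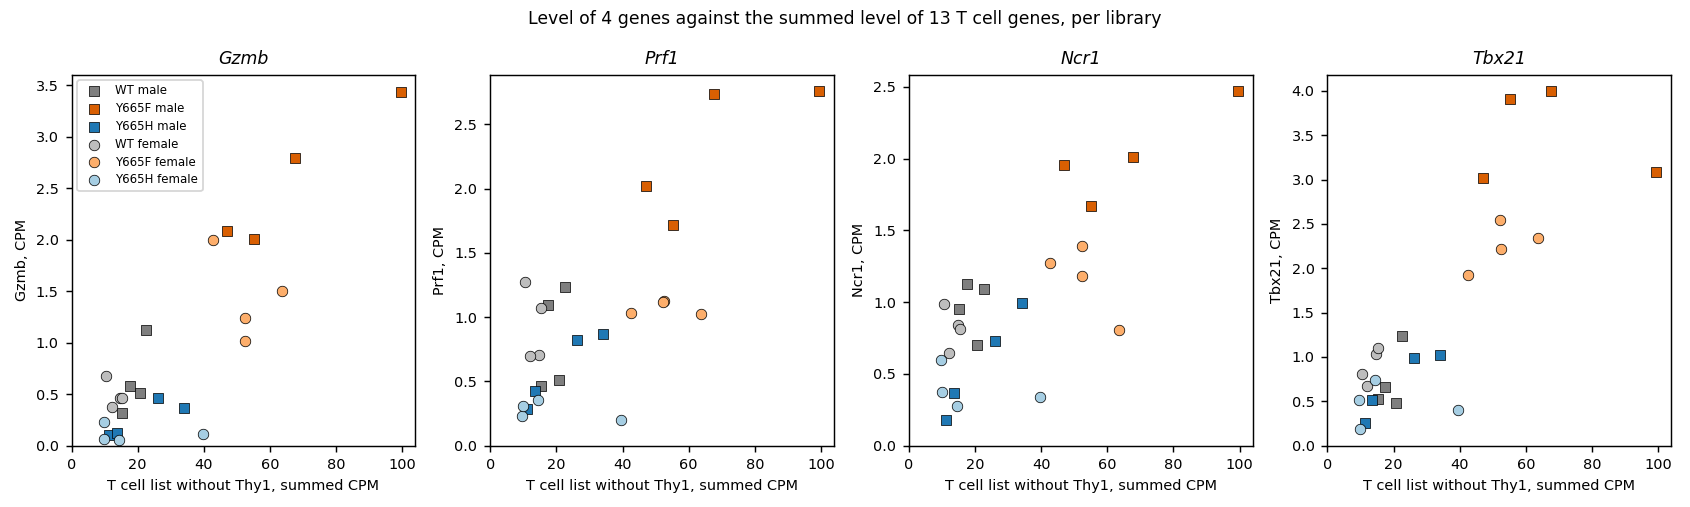
CPM of Gzmb, Prf1, Ncr1 and Tbx21 (vertical axes) against the summed CPM of 13 T cell genes, the list without Thy1 (horizontal axes), with 1 point per library. Y665F libraries lie to the right in every panel, and Y665H female 4, at the right among the Y665H females, has Prf1 at 0.199 CPM.

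The genes varied together across libraries. Over the 36 pairs of the 9 genes without Gzmk, Pearson's r of log2(CPM + 1) over the 24 libraries ran from 0.78 to 0.96 with a median of 0.87, and on deviations from the group means from 0.26 to 0.79 with a median of 0.56. These libraries fall into groups with different means, so the first range reflects group differences as well. Klrd1 and Klrk1, the neighbouring receptor genes, were the pair with the highest r on both scales, 0.96 and 0.79. On levels, Gzmk reached at most 0.70 with any of the others, in counts close to 0.

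**Figure D5:**
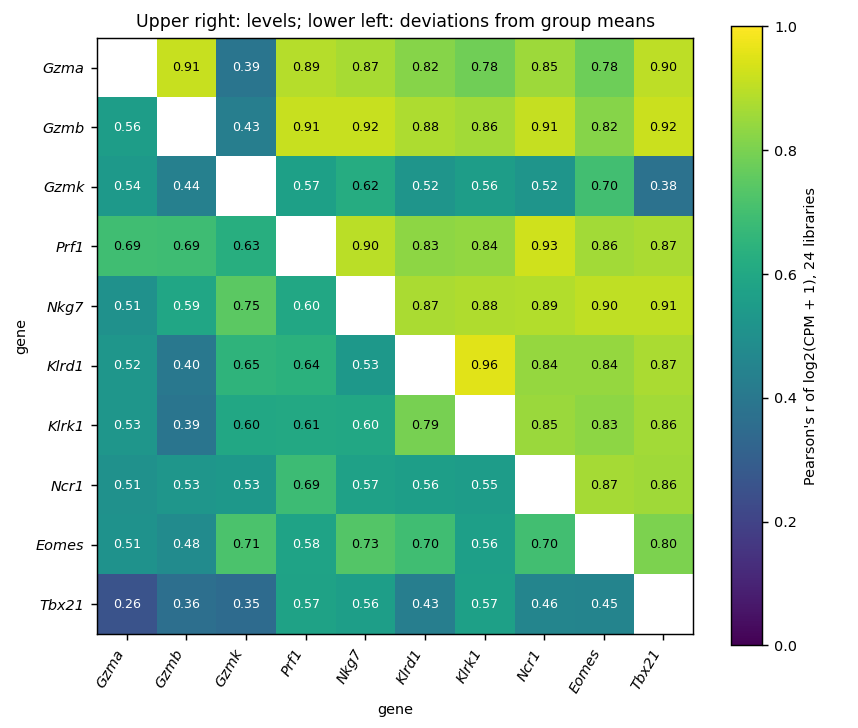
Pearson's r of log2(CPM + 1) between the 10 genes over 24 libraries, for levels in the upper right triangle and for deviations from the group means in the lower left. The Klrd1 and Klrk1 pair has the highest value in each triangle, 0.96 and 0.79, and levels of Gzmk reach at most 0.70 with any other gene.

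Outside the set, the genes most like each one over the 24 libraries came from a small circle among 14833 candidates with a mean of at least 1 CPM. Il2rb was closest to Tbx21 (r 0.96), Gzmb (r 0.93) and Ncr1 (r 0.92). Ccl5 was closest to Nkg7 (r 0.97), Prf1 (r 0.91) and Eomes (r 0.89). Klrk1 was most like Il18rap (r 0.96), Klrd1 most like Itgal (r 0.94), and Gzma most like the RIKEN locus A430078G23Rik (r 0.92). The 3 places for each of the 10 genes held 18 distinct genes, and 14 of the 30 places were filled by a gene that Spearman's rho also named for the same member. On deviations from the group means Ccl5 stayed closest to Nkg7 (r 0.92), whereas Klrd1 was then most like the interferon-induced GTPase genes Iigp1 (r 0.91) and Gbp2 (r 0.86). The values share libraries and depth and are given as descriptions.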

How the data were processed

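Total RNA of mouse adipose tissue was sequenced in 24 libraries, 4 in each of 6 groups read from the sample titles. The deposited values are raw counts: 1 file per library gives a whole number of reads for each gene symbol. Per the labels' protocols, ribosomal RNA was removed and stranded libraries were sequenced as read pairs. The submitters' processing notes name FastQC 0.11.9, Trimmomatic 0.36, STAR, SAMtools 1.9, Picard 2.9.2, HTSeq 0.9.1 and the build mm10; the annotation and the strand setting are not given in the sources used here, and reads shared between overlapping genes or near-identical copies may be split or dropped. The 5 entries that name no gene, 24.8 to 39.7% of the counts of a library, were left out. Library totals ran from 21.0 to 41.3 M counts (M, 1000000), and no libraries of a group agreed within sampling noise (chi-square per degree of freedom of at least 16.4).

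Genes were tested with edgeR 4.0.16 (quasi-likelihood F test, TMM scaling, filterByExpr with a count minimum of 10, Benjamini-Hochberg adjustment over all genes, called at an adjusted p under 0.05; R 4.3.3, limma 3.58.1) on the 8 libraries of each pair of groups, or 16 for interactions. The SE of a log2 fold change is the coefficient divided by the square root of F. The script was tested on simulated data. Alternatives were DESeq2 1.42.0, other scalings, no filter, a fit over all libraries, a replicate block, marker lists as covariates and leaving out each library. CPM use the sum over gene symbols. Likeness is Pearson's r of log2(CPM + 1), a pseudocount of 1.

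The 10 genes, the lists and the tests were chosen with earlier results of these data known. Named are the 10 genes, at most 4 called genes of smallest p per list and comparison, and the 3 genes most like each of the 10. Cd3e, Cd8a, Cd8b1, Cd4, Ptprc, Il2rb, Il15 and Ifng were named as well. Klra8, Klrb1c, Itga2, Klrb1a and Thy1, outside these, were named as cell markers after their values were seen. Positions are from GENCODE M21 on GRCm38, which is mm10. A few list genes whose symbols were not found in the files are not analysed here. Some single-gene values are left out of the text.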

Additional observations from a re-analysis of the deposited data

Results flagged for a closer look

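In groups of 4 libraries, the highest or lowest library was set against the rest by Dixon's ratio of the gap to the range, with a critical value of 0.829. Of 108 pairs of gene and group tested, 5 passed, where chance passes about 1 in 20, and none of the 5 concerned the 10 cytotoxic genes. In Y665H female 4, Cd3e was at 2.27 CPM, Cd8a at 6.47 CPM and Cd8b1 at 1.51 CPM, each far above the other 3 libraries of the group. In Y665F female 3, Cd8b1 was at 0.790 CPM, with the next library at 0.549 CPM. In Y665F female 2, Ifng was at 0.207 CPM, with the next library at 0.11 CPM and all values close to the limit that a count of 0 allows.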

How the results depend on the processing

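Of 1484 values of single genes under the alternatives, 1275 kept their direction and their side of the threshold, 128 lost a call, 32 gained one and 49 changed sign, all 49 for values that were not called. Most of the 1484 belong to genes and comparisons that were not called as reported and so could not lose a call. Against WT, each called gene kept its call in 1 to 4 of 8 fits without single libraries in Y665F females. In Y665H females this was 1 to 3 of 8. The number of the 9 tested genes called (first value as reported) moved as follows. For Y665F against WT in females it was 5, then 2 in the fit over all 24 libraries, 2 with the replicate block, and 0 with the B cell or the muscle covariate, and 0 to 5 when single libraries were left out. In males it was 0, then 8 with DESeq2 and 9 over all 24 libraries, and 0 to 2. For Y665H against WT in females it was 4, then 2 with DESeq2, 2 over all 24 libraries, 0 with the replicate block and 2 with the B cell covariate, and 0 to 4. For Y665H against Y665F in females it was 9, then 0 with the B cell covariate (0 of all genes called), and 7 to 9. In males it was 3, then 7 with DESeq2, 8 over all 24 libraries, 0 with the replicate block, 1 with the B cell covariate and 0 with the epididymis covariate, and 0 to 3. For WT males against females it was 0, then 1 over all 24 libraries, and 0 to 1. For the Y665F interaction with sex it was 0, then 1 with DESeq2, and 0 to 1. Signs changed as follows. With the muscle covariate Prf1 was at -0.026 in Y665F females, and at -0.0559 to 0.25 without single libraries; with the B cell covariate Eomes was at -0.50 there. In Y665H males Nkg7 was at 0.0105 with library totals, 0.0219 without the filter, 0.00769 over all 24 libraries, 0.51 with the epididymis covariate and -0.80 to 0.32 without single libraries, and Eomes was at -0.10 with the replicate block, -0.63 with the B cell covariate and -0.20 to 0.57. The other ranges there were -0.39 to 0.17 for Klrd1, -0.52 to 0.16 for Klrk1 and -0.32 to 0.32 for Tbx21. Between WT sexes Prf1 was at 0.0626 with the epididymis covariate, Nkg7 at 0.0218 with library totals, 0.00592 with the muscle covariate and -0.39 to 0.0557, Ncr1 at -0.0289 with the B cell covariate and -0.0171 to 0.22, Eomes at 0.13 with the muscle covariate and -0.33 to 0.0256, and Gzmb at -0.22 to 0.45. In the Y665F interaction Klrk1 was at 0.0854 with the B cell and 0.21 with the muscle covariate and -0.21 to 0.21, and Klrd1 at -0.35 to 0.0801. In the Y665H interaction Klrd1 was at -0.13 with the B cell and -0.0658 with the epididymis covariate, Klrk1 at -0.19 and Ncr1 at -0.30 with the B cell covariate, and Ncr1 at -0.16 to 0.53. The cause of these changes was not tested. Library totals in place of TMM moved the median log2 fold change of all genes from 0.02 to 0.15 in Y665F females, from -0.03 to -0.18 between the mutants in females, from 0.04 to 0.19 between WT sexes and from -0.06 to -0.24 in the Y665F interaction, and the calls over all genes in Y665F females from 361 higher and 160 lower to 1025 and 139, and between the mutants in females from 1358 and 1331 to 800 and 2407. Replicate numbers did not pair the libraries throughout any comparison: same-numbered deviations correlated from -0.37 to 0.72, with no comparison over 0.1 for every pair. The best match had the same number for 3 of 4 libraries between the WT sexes and 2 of 4 between the mutants in males. In the other comparisons this held for 0 or 1.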

Other observations

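In WT mice, few genes around the cytotoxic programme differed between the sexes. Males held more Tox, a factor of exhausted and developing lymphocytes (log2 difference 2.2, edgeR adjusted p 0.0134, SE 0.37), more Il12rb1, a chain of the interleukin 12 receptor (1.75, edgeR adjusted p 0.0366, SE 0.43), and more of the exocytosis gene Stxbp2 (0.67, edgeR adjusted p 0.0466, SE 0.18). Serpinb6b was lower in males (-1.62, edgeR adjusted p 0.0197, SE 0.31), as were Thy1 (-1.21, edgeR adjusted p 0.0134, SE 0.20) and the kinase Fyn (-0.73, edgeR adjusted p 0.0467, SE 0.20). No NK receptor was called between the sexes by edgeR, with 1 higher and 1 lower of 9 at an unadjusted p under 0.05.

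The summed level of the 25 NK receptor genes was 145 CPM in WT male 2, the library with the highest sum of epididymis markers, against 11.9 to 22.6 CPM in the other WT males. Most of this came from 2 genes, Klrb1c and Klrb1a, with maxima of 117.2 and 18.0 CPM over the WT males. The 10 cytotoxic genes summed to 5.82 CPM in WT male 2, the lowest of the 4 WT males, whose other sums were 6.25 to 10.3 CPM. Their sums were 19.3 to 29.3 CPM in Y665F males and 2.75 to 11.4 CPM in Y665H males.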
